A study of Sus scrofa with 9 samples.

Results

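The tumour necrosis factor (TNF) superfamily was followed through postnatal growth of the pig spleen as 42 of the 28095 loci in the deposited gene table. The members are the loci whose descriptions name a TNF ligand or receptor superfamily member, a TNF receptor-associated factor (TRAF) or a lymphotoxin, together with the locus described simply as tumor necrosis factor. They comprise 13 loci for ligands, 23 for receptors and 6 for TRAF adapters. The table gives descriptions in place of gene symbols, so the symbols used here were assigned from those descriptions. The spleens came from Ningxiang pigs, a Chinese indigenous breed, at postnatal days 30, 90 and 210, with 3 RNA-seq libraries per age. The pigs received no treatment named in the labels, and breed and tissue were shared by the 3 ages. Whether the libraries of an age stand for different animals is not stated in the labels, and p-values here cover the spread between libraries, which may be technical. Several relatives are not analysed here because no locus met the rule under their names, among them LTB, TNFRSF1B, TNFRSF14, FASLG and TRAF7.

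Ligands of this family are mostly membrane-anchored trimers, several of which can be cleaved into soluble cytokines, and they cluster receptors with cysteine-rich extracellular domains. Receptors with a cytoplasmic death domain can recruit FADD or TRADD and activate caspases, whereas most others recruit TRAF adapters that lead to NF-kappa-B. In the spleen of mice and humans the family is known for setting up and maintaining white pulp through lymphotoxin and its receptor, for keeping mature B cells alive through BAFF (TNFSF13B) and BAFFR (TNFRSF13C), and for the CD40 signal that drives germinal centre responses.

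The libraries held 48930557 to 62119158 counted reads, and common biological variation between libraries of an age was 27.3%. One locus, MSTRG.13356, took 7.02% and 7.01% of counts in day 90 replicates 2 and 3 and at most 1.70% in the other libraries. Spleen identity was checked with NKX2-5 and NKX2-3, which averaged 8.17 and 4.59 FPKM (fragments scaled by the counted length of the locus and by library size). The 3 adipocyte genes found, ADIPOQ, PLIN1 and FABP4, averaged 0.00809, 0.267 and 0.889 FPKM. FABP4 stood at 1.48, 2.43 and 2.47 FPKM in day 30 libraries and at 0 to 0.554 FPKM in the later ones. The summed level of the 8 red cell precursor markers that were found was 291 to 844 CPM (counts scaled by library size) in day 30 libraries, 22.6 to 59.3 CPM at day 90 and 23.6 to 37.9 CPM at day 210, with day 30 replicate 1 the highest. In bulk tissue, fewer cells of a type and less RNA per cell cannot be told apart.

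Some members of the family changed with age, and more of those calls were in receptors, which also made up 21 of the 36 members tested. Of the 42 members, 36 averaged at least 1 FPKM over the 9 libraries and were tested, namely 9 ligands, 21 receptors and 6 adapters; those below this level were LTA, 1 of the 2 loci described as TNFSF4, TNFSF15, TNFSF18, TNFRSF8 and EDAR. Between day 90 and day 30, 3 receptors rose (TNFRSF13C, TNFRSF13B and FAS) and TNFRSF1A fell, which is 4 of 36 where 6.08% of all tested loci were called, 2.06% as risen and 4.02% as fallen. Between day 210 and day 90, CD40 fell and 0 members rose, where 0.535% of all loci were called, 0.187% as fallen and 0.348% as risen; DESeq2 called 2 members as risen there, with 2.61% of all loci, and limma called 0. Between day 210 and day 30, TNFRSF21 and TNFRSF13B rose while TNF, CD40 and TNFRSF11B fell, which is 5 of 36 where 6.24% of all loci were called, 2.55% as risen and 3.7% as fallen. A test for any difference among the 3 ages called 6 members, TRAF4 being the one not found in a pairwise comparison, against 7.64% of all loci. The tests were edgeR's quasi-likelihood test on counts over 19264 loci with Benjamini-Hochberg adjustment at 0.05, and all adjusted p-values below come from it unless another tool is named.

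The members moved in both directions, and 12, 12 and 15 of the 36 had an unadjusted p under 0.05 for day 90 against day 30, day 210 against day 90 and day 210 against day 30, where 23.1%, 14.1% and 23.7% of all tested loci did. The median size of the log2 change, without its sign, was 0.32, 0.31 and 0.31 over the members, and 0.23, 0.18 and 0.24 over all tested loci. The median signed log2 change over the 36 members was 0.04 between day 90 and day 30, -0.03 between day 210 and day 90 and 0.08 between day 210 and day 30, on the log2 scale of a count model. The medians over all tested loci were 0.003, -6.6e-05 and 0.005. Day 90 libraries lay wholly above day 30 libraries for 9 members and wholly below for 5, where 16.9% and 16.7% of all loci did so. Day 210 libraries lay wholly above day 30 libraries for 8 members and wholly below for 8, where the shares of all loci were 12.4% and 13.2%. Day 210 libraries lay wholly above day 90 libraries for 3 members and wholly below for 6, against 9.91% and 9.53% of all loci.

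**Figure D1:**
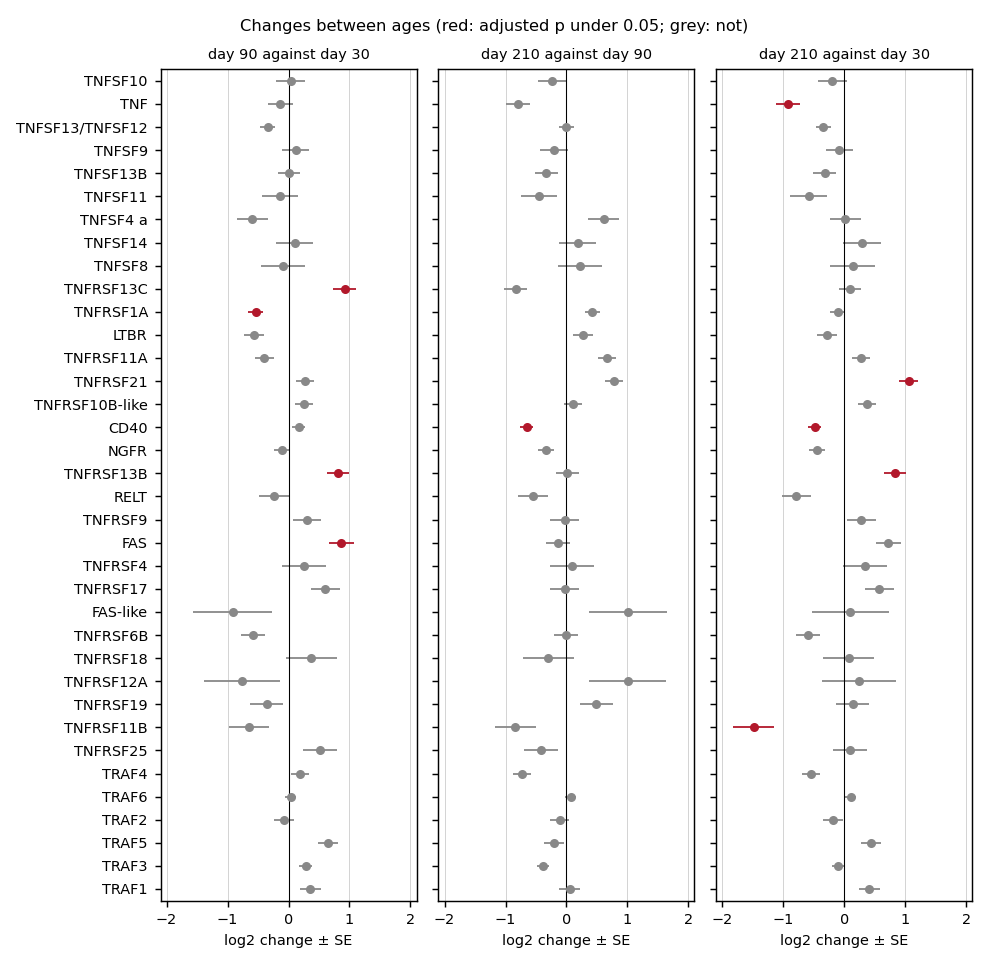
Log2 change with its standard error for the 36 tested members, ordered within ligands, receptors and adapters from high to low mean FPKM, in the 3 comparisons of ages. Red points passed an adjusted p of 0.05; CD40 is the one red point between day 210 and day 90.

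In level per length, receptors and adapters were as a group above the typical described locus. Median FPKM was 2.18 over the 13 ligands, 2.80 over the 23 receptors and 3.97 over the 6 adapters, against 2.16 over all loci with a description. TNFRSF13C was highest at 21.2 FPKM, followed by TNFRSF1A at 13.6, LTBR at 10.4 and TNFRSF11A at 9.06. Of the 13 members above 5 FPKM, 3 were ligands, namely TNFSF10 at 6.06, TNF at 5.31 and the locus that merges TNFSF13 with TNFSF12 at 5.21. TNFSF18, the ligand of GITR, was lowest at 0.0652 FPKM, with 0, 3 and 0 reads in day 30 libraries, 2, 6 and 0 in day 90 libraries and 11, 0 and 6 in day 210 libraries. These levels depend on how far a locus was assembled, because the length behind the FPKM of a member ranged from 1.55% to 99.98% of its span. TNFRSF21 was counted over 41484 bases, TRAF3 over 32458 and TNFSF10 over 18404 of its 18407 bases. The FPKM of these members are averages over long stretches, and comparisons within a gene across ages are not affected by that length.

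**Figure D2:**
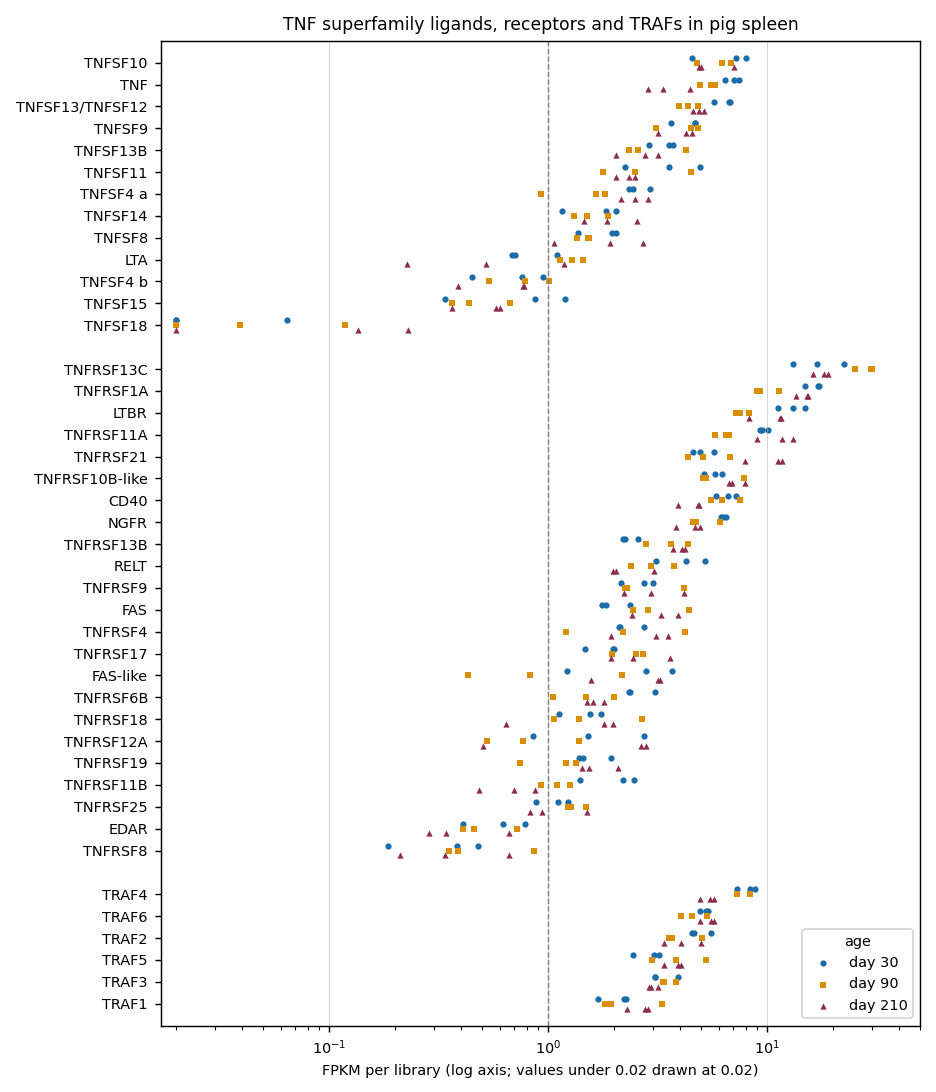
FPKM of the 42 members in each of the 9 libraries on a log axis, grouped as ligands, receptors and adapters from top to bottom and marked by age; the dashed line at 1 FPKM is the level used as the filter on the mean. TNFRSF13C lies highest among receptors, and its day 90 points stand to the right of its day 30 and day 210 points.

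BAFF and its relative APRIL (TNFSF13) are survival factors for B cells and plasma cells, and 2 of their 3 receptors changed with age. TNFRSF13C, the receptor that binds BAFF alone and keeps mature B cells alive, lies on chromosome 5 from 24900103 to 24903858 on the plus strand. It stood at 48.3, 63.6 and 76.5 CPM at day 30, 104, 135 and 118 CPM at day 90 and 57.0, 68.1 and 75.1 CPM at day 210, where CPM are also scaled by TMM factors, which correct for differences in RNA composition. The 3 day 90 libraries lay above all libraries of the other ages. TNFRSF13C was 1.89-fold higher at day 90 than at day 30 (log2 change 0.92 ± 0.18 SE, adjusted p = 0.0238). The difference between day 210 and day 90 was -0.83 ± 0.18 with an adjusted p of 0.0869, and it passed by DESeq2 (adjusted p = 0.00243). The rise at day 90 had an adjusted p of up to 0.0795 when 1 library was left out and ended without day 30 replicate 1 or 2 or any of the 3 day 90 libraries, with log2 changes of 0.76 to 1.09. An undescribed locus on the other strand covers TNFRSF13C entirely and averaged 1.78 FPKM. The strand of the libraries is not given, so reads of the pair cannot be told apart. In all, 11 members overlap another locus. The same limit holds for the overlapped parts of TRAF5 (37.6% of its span), TNFRSF11A (34.6%), TRAF6 (32.7%) and TRAF3 (44.4% by 1 of its overlapping loci).

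TNFRSF13B (TACI), which binds both BAFF and APRIL and restrains B cell numbers in mice, lies on chromosome 12 from 8101218 to 8112067 on the plus strand. Its level was 2.63, 2.37 and 2.1 CPM at day 30, 4.22, 3.50 and 4.71 CPM at day 90 and 4.14, 3.91 and 4.54 CPM at day 210. All libraries of the later ages lay above those of day 30. The log2 change was 0.81 ± 0.18 between day 90 and day 30 (adjusted p = 0.0358) and 0.83 ± 0.18 between day 210 and day 30 (adjusted p = 0.0340), and day 210 differed from day 90 by 0.02 ± 0.18 (adjusted p = 0.982). Leaving out any library of the 2 ages compared ended these calls, with adjusted p-values of up to 0.116 and 0.110, as did leaving out day 90 replicate 1 for day 210 against day 30; both also ended with no filter on low loci and in a fit of the 2 ages alone, and the first with limma on FPKM. TNFRSF17 (BCMA), a receptor known from long-lived plasma cells, stood at 9.35, 9.48 and 6.42 CPM at day 30, 11.1, 11.1 and 16 CPM at day 90 and 16, 11.6 and 9.85 CPM at day 210. The later libraries were again the higher ones, but the log2 differences from day 30 of 0.60 ± 0.24 at day 90 and 0.57 ± 0.24 at day 210 did not pass (adjusted p = 0.172 and 0.187).

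The ligands of this axis did not pass in the 3 comparisons. TNFSF13B stood at 15.1, 15 and 10.9 CPM at day 30, 16.4, 12.8 and 12 CPM at day 90 and 12.3, 11.4 and 8.98 CPM at day 210, with overlapping ages. The log2 difference between day 90 and day 30 was 0.01 ± 0.19 (adjusted p = 0.987). The locus that merges TNFSF13 with TNFSF12 (TWEAK) had 36.3, 36.8 and 28.5 CPM at day 30, 24.5, 28.5 and 27.0 CPM at day 90 and 26.6, 26.6 and 26.7 CPM at day 210. The share of each gene in it is uncertain, and the difference of -0.35 ± 0.12 between day 210 and day 30 did not pass (adjusted p = 0.135). By limma on FPKM the locus fell between day 90 and day 30 (-0.46, adjusted p = 0.0442). The limma median over all tested loci was also negative in that comparison, at -0.15.

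Markers of B cells and plasma cells moved beside these receptors. The 9 of 11 B cell markers that were found summed to 731 to 880 CPM at day 30, 1070 to 1279 CPM at day 90 and 743 to 872 CPM at day 210; 6 of the 9 rose between day 90 and day 30 and 2 fell between day 210 and day 90. The 5 of 6 plasma cell markers found summed to 306 to 391 CPM at day 30, 621 to 1130 CPM at day 90 and 794 to 884 CPM at day 210, and all 5 rose between day 90 and day 30. Of all tested loci, 2.06% were called as risen between day 90 and day 30 and 0.187% as fallen between day 210 and day 90. The lowest of these B cell and plasma cell markers, SDC1, averaged 1.90 FPKM. Their part in the receptor changes was not tested.

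**Figure D3:**
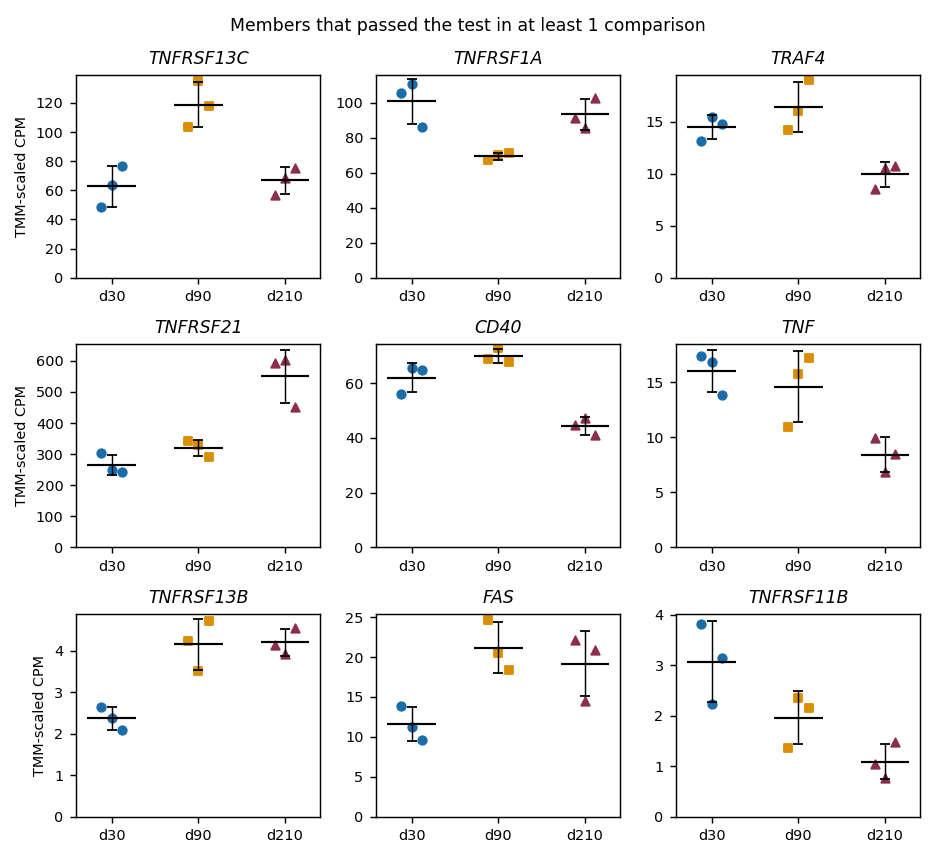
TMM-scaled CPM of the 9 members that passed the test in at least 1 comparison, by age (d30, d90, d210), with 1 point per library; horizontal lines are means and error bars are SD over 3 libraries. TNFRSF13C peaks at day 90, TNFRSF13B and FAS are higher at both later ages, and TNFRSF21 is highest at day 210 in all 3 libraries.

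CD40, the receptor on B cells and dendritic cells that receives help from T cells, was lowest at day 210. It lies on chromosome 17 from 46384278 to 46396903 on the plus strand. Its level was 55.9, 65.5 and 64.6 CPM at day 30, 68.8, 72.7 and 67.9 CPM at day 90 and 44.9, 47.3 and 40.9 CPM at day 210. The day 210 libraries lay below all others. CD40 fell by 0.65 ± 0.11 on the log2 scale between day 210 and day 90 (adjusted p = 0.0415) and by 0.48 ± 0.11 between day 210 and day 30 (adjusted p = 0.0332). The first of these calls ended without any 1 library other than day 30 replicate 1 (adjusted p up to 0.147) and the second without any 1 of the 9 libraries (adjusted p up to 0.114), while the log2 differences stayed between -0.70 and -0.60 and between -0.55 and -0.43. Both calls also ended without TMM scaling, with limma on FPKM and in a fit of the 2 ages alone, and the first with no filter (adjusted p up to 0.229 and 0.111).

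The CD40 ligand, described as such in the table and therefore outside the rule, was low and did not pass in any comparison. CD40LG, a T cell protein, stood at 2.51, 1.15 and 1.72 CPM at day 30, 1.55, 1.99 and 2.71 CPM at day 90 and 2.09, 1.62 and 1.31 CPM at day 210, so the ages overlapped. Its log2 difference between day 210 and day 30 was -0.10 ± 0.34 (adjusted p = 0.893). The 5 dendritic cell markers found summed to 89.4 to 109 CPM at day 30, 81.6 to 109 CPM at day 90 and 53.1 to 59.4 CPM at day 210. Of these markers, 2 fell between day 210 and day 30 and 1 fell between day 210 and day 90. The shares of all loci that fell in these comparisons were 3.7% and 0.187%. B cell marker sums were 1070 to 1279 CPM at day 90 and 743 to 872 CPM at day 210, and 2 of the 9 markers fell between these ages. At day 30 the B cell sums, 731 to 880 CPM, overlapped those of day 210. The part of either cell type in the lower CD40 level was not tested.

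TNF, the founding cytokine of the family and a product of macrophages and lymphocytes, was lowest at day 210. The gene lies on chromosome 7 from 127739630 to 127742220 on the minus strand, 2077 bases from LTA. TNF stood at 17.3, 16.9 and 13.8 CPM at day 30, 10.9, 15.7 and 17.2 CPM at day 90 and 9.97, 6.83 and 8.46 CPM at day 210. The day 210 libraries lay below all others, though day 90 replicate 1 came close to the highest of them. TNF fell by 0.93 ± 0.20 on the log2 scale between day 210 and day 30 (adjusted p = 0.0326), whereas the difference of -0.79 ± 0.20 between day 210 and day 90 did not pass (adjusted p = 0.129) and passed by DESeq2 (adjusted p = 0.0172). The call against day 30 ended without day 30 replicate 1 or 2, day 90 replicate 2 or day 210 replicate 2 or 3 (adjusted p up to 0.104, log2 differences of -1.07 to -0.80) and in a fit of the 2 ages alone. The 6 macrophage markers summed to 1683 to 2040 CPM at day 30, 1521 to 1848 CPM at day 90 and 1735 to 2596 CPM at day 210, and their part in the TNF change was not tested. Of the 4 macrophage markers tested, CD163 was 2.06-fold higher at day 210 than at day 30 and passed, while CSF1R (0.94-fold), MARCO (0.863-fold) and SLC40A1 (1.09-fold) did not pass; CD68 and VSIG4 were under the filter at averages of 0.425 and 0.284 FPKM.

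TNFRSF1A, the broadly expressed TNF receptor with a death domain, was lowest at day 90. It lies on chromosome 5 from 62108822 to 62122290 on the plus strand. The level was 106, 111 and 86.2 CPM at day 30, 67.3, 70.3 and 71.1 CPM at day 90 and 91.5, 85.6 and 103 CPM at day 210. The day 90 libraries lay below all others. TNFRSF1A fell by 0.54 ± 0.12 on the log2 scale between day 90 and day 30 (adjusted p = 0.0358), and day 210 differed from day 90 by 0.43 ± 0.12 (adjusted p = 0.166). The call ended without day 30 replicate 1 or 2 or any 1 day 90 library (adjusted p up to 0.129, log2 differences of -0.64 to -0.47), and also with no filter on low loci.

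LTBR, the lymphotoxin beta receptor of stromal cells that organises white pulp, lies 40594 bases from TNFRSF1A on the same chromosome and had a like order of ages. It stood at 23.9, 21.9 and 16.8 CPM at day 30, 12.8, 14.2 and 15.4 CPM at day 90 and 17.6, 19.1 and 14.4 CPM at day 210. Day 90 libraries lay below those of day 30, but the log2 difference of -0.57 ± 0.16 did not pass (adjusted p = 0.0752). It passed by DESeq2 (adjusted p = 0.0270) and by limma on FPKM (adjusted p = 0.0217). The limma median over all tested loci was -0.15 in that comparison. Day 30 was also the age of the highest sums for endothelium and for fibroblasts and matrix. Endothelium (6 markers) summed to 640 to 779 CPM at day 30, 301 to 372 at day 90 and 270 to 334 at day 210. Fibroblasts and matrix (5 markers) summed to 893 to 1166, 384 to 541 and 332 to 544 CPM in the same order of ages. The sum over the 6 markers found of stromal and follicular dendritic cells overlapped between ages (830 to 1169, 798 to 968 and 735 to 1266 CPM). Of the 5 of these markers that were tested, 1 fell between day 90 and day 30, 2 fell between day 210 and day 30, and 0 rose. The shares of all loci that fell were 4.02% and 3.7%. The part of these cell types in the levels of TNFRSF1A and LTBR was not tested.

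The soluble lymphotoxin LTA was under the filter, with 32, 33 and 49 reads in day 30 libraries, 68, 65 and 55 in day 90 libraries and 25, 10 and 49 in day 210 libraries. In CPM, day 90 libraries (1.08, 1.24 and 1.14) lay above those of day 30 (0.536, 0.574 and 0.803) and of day 210 (0.398, 0.197 and 1.02), but the test for any difference among ages did not pass with no filter (adjusted p = 0.377) or with edgeR's filterByExpr (adjusted p = 0.343). TNFSF14 (LIGHT), a T cell ligand of LTBR, averaged 1.53 CPM at day 30, 1.64 CPM at day 90 and 1.88 CPM at day 210 (SD 0.393, 0.0873 and 0.641, n = 3 each), and did not pass (adjusted p of at least 0.609).

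The RANK axis controls osteoclasts and, in lymphoid tissue of mice, lymph node and stromal development. TNFRSF11B (osteoprotegerin), the secreted decoy that captures RANKL, fell with age. It lies on chromosome 4 from 13575648 to 13603496 on the plus strand. It stood at 3.82, 2.23 and 3.15 CPM at day 30, 1.36, 2.35 and 2.15 CPM at day 90 and 1.04, 0.769 and 1.47 CPM at day 210. The day 210 libraries lay below those of day 30, with day 90 overlapping both. TNFRSF11B fell by 1.49 ± 0.34 on the log2 scale between day 210 and day 30 (adjusted p = 0.0349). The call ended without any 1 day 30 library, day 90 replicate 2 or 3, or day 210 replicate 1 or 2 (adjusted p up to 0.110, log2 differences of -1.76 to -1.29), and in a fit of the 2 ages alone. Endothelial and fibroblast sums, given above, were lower at day 210 than at day 30 as well, and their part in this change was not tested.

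RANK itself (TNFRSF11A) stood at 22.5, 25 and 21.2 CPM at day 30, 15.4, 19.1 and 17.8 CPM at day 90 and 27.2, 32.4 and 23.5 CPM at day 210. Day 90 libraries lay below both other ages, and the difference from day 30 of -0.39 ± 0.15 did not pass by edgeR (adjusted p = 0.150). It did by limma on FPKM (adjusted p = 0.0462), where the median over all tested loci was -0.15. The log2 difference of 0.67 ± 0.15 between day 210 and day 90 did not pass (adjusted p = 0.0882) and passed by DESeq2 (adjusted p = 0.00504). RANKL (TNFSF11) varied between libraries, with 2.76, 4.51 and 5.62 CPM at day 30, 5.22, 3.73 and 2.77 CPM at day 90 and 2.92, 2.94 and 2.74 CPM at day 210, and its ages overlapped.

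Among the death receptors, FAS rose after day 30. FAS, which triggers apoptosis of activated lymphocytes, lies on chromosome 14 from 98649211 to 98678455 on the plus strand. It stood at 13.9, 11.2 and 9.65 CPM at day 30, 24.7, 20.5 and 18.3 CPM at day 90 and 22.1, 14.5 and 20.9 CPM at day 210. The libraries of both later ages lay above those of day 30. FAS was 1.82-fold higher at day 90 than at day 30 (log2 change 0.87 ± 0.20, adjusted p = 0.0380). The difference of 0.72 ± 0.20 between day 210 and day 30 did not pass (adjusted p = 0.0675) and passed by DESeq2 (adjusted p = 0.0127). The day 90 call ended without any 1 library of days 30 or 90 (adjusted p up to 0.137, log2 changes of 0.74 to 1.02), and also with no filter and with limma on FPKM. The 12 of 13 T cell markers found summed to 461 to 533 CPM at day 30, 598 to 671 CPM at day 90 and 628 to 856 CPM at day 210. All 12 had a positive log2 change between day 90 and day 30. There edgeR called 0 of them (4 at an unadjusted p under 0.05), DESeq2 called 1 and limma called 0. All 12 were also positive between day 210 and day 30. In that comparison edgeR called 1 of them (7 at an unadjusted p under 0.05), DESeq2 called 4 and limma called 0. Of all loci, edgeR called 6.08% and 6.24% in these comparisons (23.1% and 23.7% at an unadjusted p under 0.05). DESeq2 called 12.6% and 11.9% of them. Their part in the FAS change was not tested.

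A second locus, described as FAS-like, lies within a locus described as the oxysterol-binding protein-related protein OSBPL5 on the same strand, so its reads are uncertain. It ranged from 0.670 CPM in day 90 replicate 2 to 4.68 CPM in day 30 replicate 2 and did not pass (adjusted p of at least 0.442). TNFSF10 (TRAIL), a ligand that induces apoptosis, stood at 170, 194 and 98.9 CPM at day 30, 152, 137 and 186 CPM at day 90 and 159, 120 and 125 CPM at day 210. The ages overlapped, with day 30 replicate 3 lowest of the 9 libraries and day 30 replicate 2 highest. The locus like its receptor TNFRSF10B averaged 48.4 CPM at day 30, 57.9 CPM at day 90 and 62.6 CPM at day 210 (SD 6.65, 5.21 and 9.09, n = 3 each) and did not pass (adjusted p of at least 0.169). TNFRSF6B, a soluble decoy for FAS ligand and LIGHT in humans, averaged 7.23 CPM at day 30, 4.81 CPM at day 90 and 4.76 CPM at day 210 (SD 0.796, 0.998 and 0.583, n = 3 each). Its day 30 libraries lay above the others, and the log2 difference of -0.60 ± 0.20 between day 210 and day 30 did not pass (adjusted p = 0.107); 46.9% of its locus overlaps that of ARFRP1.

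TNFRSF21 (death receptor 6), which in mice limits T helper cell and B cell responses, showed the one change that passed under all alternatives run. It lies on chromosome 7 from 109492522 to 109634289 on the plus strand. TNFRSF21 stood at 304, 249 and 243 CPM at day 30, 341, 330 and 292 CPM at day 90 and 593, 605 and 453 CPM at day 210. The day 210 libraries lay above all others, and day 90 overlapped day 30. It was 2.07-fold higher at day 210 than at day 30 (log2 change 1.05 ± 0.15, adjusted p = 0.0076). The difference of 0.78 ± 0.15 between day 210 and day 90 did not pass (adjusted p = 0.0617) and passed by DESeq2 (adjusted p = 0.000232). The call against day 30 remained without each of the 9 libraries in turn, with an adjusted p of at most 0.0346 and log2 changes of 0.98 to 1.17, and under the 8 other alternatives of scaling, filter, tool and design (adjusted p of at most 0.0287). The macrophage marker sum was 1683 to 2040 CPM at day 30, 1521 to 1848 CPM at day 90, and 2269, 2596 and 1735 CPM in the day 210 libraries. As given above, 1 of the 4 tested macrophage markers, CD163, rose between day 210 and day 30, where 2.55% of all loci rose. Plasma cell marker sums were 306 to 391 CPM at day 30 and 621 to 1130 CPM at day 90. At 794 to 884 CPM, all 3 day 210 libraries were higher than day 30 and within the range of day 90. The part of either cell type in the result was not tested.

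The remaining receptors did not pass. NGFR, the low-affinity neurotrophin receptor also found on follicular dendritic cells in humans, stood at 10.1, 10.8 and 9.19 CPM at day 30, 9.27, 8.98 and 9.68 CPM at day 90 and 7.26, 8.15 and 6.65 CPM at day 210. Its day 210 libraries lay below all others, with a log2 difference of -0.45 ± 0.13 from day 30 (adjusted p = 0.0798; DESeq2 adjusted p = 0.0499). RELT, a receptor found mainly in blood-forming and lymphoid tissue of humans, ranged from 74.4 to 112 CPM at day 30, 64.6 to 110 CPM at day 90 and 46.7 to 67.4 CPM at day 210, and its difference of -0.79 ± 0.24 between day 210 and day 30 did not pass (adjusted p = 0.0912; DESeq2 adjusted p = 0.0164). An undescribed locus on the other strand, at 2.01 FPKM, covers 72.4% of RELT, so reads of the pair cannot be told apart there. TNFRSF19 averaged 2.86 CPM at day 30, 2.23 CPM at day 90 and 3.14 CPM at day 210. TNFRSF12A, the receptor of TWEAK, ranged from 0.290 to 1.42 CPM over the 9 libraries, with both ends at day 210. EDAR, the receptor of ectodysplasin in skin appendages, averaged 0.522 FPKM and was not tested.

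The members tested among the costimulatory pairs of activated T cells were TNFSF4 a, TNFRSF4, TNFRSF18, TNFSF9, TNFRSF9, TNFSF8 and TNFRSF25. Of these, 0 passed by edgeR, DESeq2 or limma. In the same order of comparisons as above, edgeR called 6.08%, 0.535% and 6.24% of all loci. DESeq2 called 12.6%, 4.16% and 11.9% of them, and limma called 8.93%, 0.633% and 4.81%. In a set this small, 0 calls is near those shares. TNFSF4 a, the higher of the 2 loci described as OX40 ligand, stood at 3.57, 3.53 and 3.98 CPM at day 30, 2.31, 1.66 and 3.37 CPM at day 90 and 4, 3.24 and 3.98 CPM at day 210. Day 90 libraries lay below those of day 30, and the log2 difference of -0.59 ± 0.25 did not pass (adjusted p = 0.202). Its receptor OX40 (TNFRSF4) averaged 2.47 CPM at day 30, 2.93 CPM at day 90 and 3.13 CPM at day 210, and GITR (TNFRSF18), which lies 4922 bases away on chromosome 6, averaged 1.72 CPM at day 30, 2.23 CPM at day 90 and 1.81 CPM at day 210. The receptor 4-1BB (TNFRSF9) averaged 9.06 CPM at day 30, 11.2 CPM at day 90 and 11 CPM at day 210, and its ligand TNFSF9 averaged 4.29, 4.65 and 4.05 CPM in the same order of ages. TNFSF8 (CD30 ligand) averaged 1.61 CPM at day 30, 1.51 CPM at day 90 and 1.77 CPM at day 210. TNFRSF25, the receptor of TL1A, averaged 1.79 CPM at day 30, 2.57 CPM at day 90 and 1.92 CPM at day 210; its day 90 libraries lay above those of day 30 without passing (log2 difference 0.52 ± 0.28, adjusted p = 0.308). Those under the filter were its ligand TNFSF15, the second TNFSF4 locus, TNFSF18 and TNFRSF8 (CD30), whose FPKM averaged 0.602, 0.711, 0.0652 and 0.429. CD27, outside the rule and merged with a neighbouring gene described as tapasin-related, averaged 106 CPM at day 30, 121 CPM at day 90 and 117 CPM at day 210 and did not pass (adjusted p of at least 0.531).

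Of the 6 TRAF adapters, which link receptors to NF-kappa-B and MAP kinases, 0 passed a pairwise comparison by edgeR, with 2, 2 and 3 at an unadjusted p under 0.05 for day 90 against day 30, day 210 against day 90 and day 210 against day 30, where the shares of all loci were 23.1%, 14.1% and 23.7%. DESeq2 called 1 in each comparison, with 12.6%, 4.16% and 11.9% of all loci, and limma called 1 between day 210 and day 30, with 4.81% of all loci. TRAF4 differed among the 3 ages (adjusted p = 0.0396 for any difference), with 13.2, 15.5 and 14.8 CPM at day 30, 14.2, 16.1 and 19 CPM at day 90 and 8.55, 10.5 and 10.8 CPM at day 210. Its day 210 libraries lay below all others, with log2 differences of -0.72 ± 0.15 from day 90 (adjusted p = 0.0743) and -0.54 ± 0.15 from day 30 (adjusted p = 0.0652). By DESeq2 both differences passed (adjusted p = 0.0038 and 0.0270). By limma on FPKM the difference from day 30 passed (adjusted p = 0.0426). The call for any difference ended without any 1 of the 9 libraries (adjusted p up to 0.0907) and with no filter on low loci (adjusted p = 0.0515). TRAF4 lies wholly within a locus described as FAM222B on the other strand, so reads of the pair cannot be told apart.

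TRAF5, which serves CD40, OX40 and CD27, stood at 8.51, 10.9 and 10.4 CPM at day 30, 17.3, 16.2 and 13.1 CPM at day 90 and 11.3, 13.9 and 15.2 CPM at day 210. The libraries of both later ages lay above those of day 30, and the log2 difference of 0.65 ± 0.17 between day 90 and day 30 did not pass (adjusted p = 0.0519; DESeq2 adjusted p = 0.0115). TRAF3, the brake on the alternative NF-kappa-B pathway below BAFFR and CD40, averaged 136 CPM at day 30, 166 CPM at day 90 and 127 CPM at day 210 (SD 12.8, 13 and 2.98, n = 3 each); its day 90 libraries lay above those of the other ages, without passing (adjusted p = 0.147 against day 30, and 0.152 for day 210 against day 90). TRAF1 averaged 37.4 CPM at day 30, 47.9 CPM at day 90 and 49.6 CPM at day 210, and TRAF2 averaged 48.5, 46.1 and 42.7 CPM in the same order. TRAF6 was the least variable adapter between libraries, at 38.4 to 43.2 CPM over all 9.

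The wider pathway was read from a list of 35 signalling genes, of which 31 were found and tested. CASP8, the initiator caspase of death receptors, was the 1 gene that passed, between day 90 and day 30 (log2 change 0.45 ± 0.10, adjusted p = 0.0313). In that comparison 6.08% of all loci were called, so 1 of 31 was not above the share of all loci. An unadjusted p under 0.05 was held by 6 of the 31, where 23.1% of all loci had one. CASP8 stood at 24.4, 22.3 and 23.0 CPM at day 30, 31.6, 32.0 and 31.5 CPM at day 90 and 26.7, 26.6 and 24.1 CPM at day 210, so the day 90 libraries lay above all others. The call ended without any 1 library of days 30 or 90 (adjusted p up to 0.112), without TMM scaling and with limma on FPKM (log2 change 0.21, adjusted p = 0.407). By edgeR, 0 of the 31 passed between day 210 and day 90 and 0 between day 210 and day 30, with 4 at an unadjusted p under 0.05 in each, where 14.1% and 23.7% of all loci were under it. DESeq2 called 0 and 3 there, against 4.16% and 11.9% of all loci, and limma called 0 and 1, against 0.633% and 4.81%. With both directions counted together, none of these shares was above that of all loci. Between day 210 and day 30 DESeq2 called 6.61% of all loci as fallen, and its 3 falls of 31 were above that share. The 3 that DESeq2 called between day 210 and day 30, all lower, were NFKB2, RELB and a merged locus that holds RNF31. The merged locus stood at 187, 204 and 134 CPM at day 30 and 108, 125 and 158 CPM at day 90. At day 210 it stood at 107, 107 and 124 CPM. It was the locus that limma called, as lower than day 30 at both later ages, with 8.93% and 4.81% of all loci called. NFKB2 stood at 79.5, 87.6 and 82.9 CPM at day 30, 74.3, 79.9 and 90.8 CPM at day 90 and 63.8, 59.9 and 67.3 CPM at day 210, with an edgeR log2 difference of -0.39 ± 0.11 between day 210 and day 30 (adjusted p = 0.0688). RELB stood at 38.9, 43.2 and 39.2 CPM at day 30, 37.3, 42.7 and 39.8 CPM at day 90 and 28.9, 31.6 and 32.2 CPM at day 210, with a log2 difference of -0.39 ± 0.11 (adjusted p = 0.0622). The median log2 change over the 31 genes was 0.03, -0.06 and 0.07 for day 90 against day 30, day 210 against day 90 and day 210 against day 30.

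Ligands and receptors were paired within each library as the ligand's FPKM divided by the receptor's, a ratio on which library scaling has no bearing and which is given as a description. BAFF to TACI was 1.32 to 1.60 at day 30, 0.643 to 0.978 at day 90 and 0.499 to 0.752 at day 210. The ligand thus exceeded the receptor per length in the 3 day 30 libraries and was below it in the 6 later ones. Which side of 1 a ratio falls on depends on the counted lengths, 3184 bases for TNFSF13B and 803 for TNFRSF13B. The merged APRIL and TWEAK locus to TACI was 2.60 to 2.98 at day 30, 1.09 to 1.55 at day 90 and 1.13 to 1.3 at day 210. The same locus to BCMA was 3.37 to 3.87 at day 30, 1.47 to 2.23 at day 90 and 1.44 to 2.36 at day 210, with the day 30 libraries again apart from the rest. BAFF to BAFFR had medians of 0.212 at day 30, 0.0923 at day 90 and 0.152 at day 210, and its ranges overlapped between ages.

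In the TNF and lymphotoxin pairs the order of ages was another. TNF to TNFRSF1A was 0.407 to 0.439 at day 30, 0.435 to 0.646 at day 90 and 0.213 to 0.291 at day 210, so day 210 libraries lay below all others. LTA to TNFRSF1A was 0.0401 to 0.0736 at day 30, 0.126 to 0.139 at day 90 and 0.0168 to 0.0774 at day 210, so day 90 libraries lay above all others. LIGHT to LTBR was 0.0878 to 0.165 at day 30, 0.176 to 0.227 at day 90 and 0.128 to 0.308 at day 210. CD40LG to CD40 was 0.165 to 0.428 at day 30, 0.216 to 0.381 at day 90 and 0.303 to 0.442 at day 210, with overlapping ages. RANKL to RANK had medians of 0.355, 0.386 and 0.211 at days 30, 90 and 210, and the day 210 libraries lay below all others. RANKL to osteoprotegerin had medians of 2.25, 1.99 and 3.55 in the same order, with overlapping ranges.

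**Figure D4:**
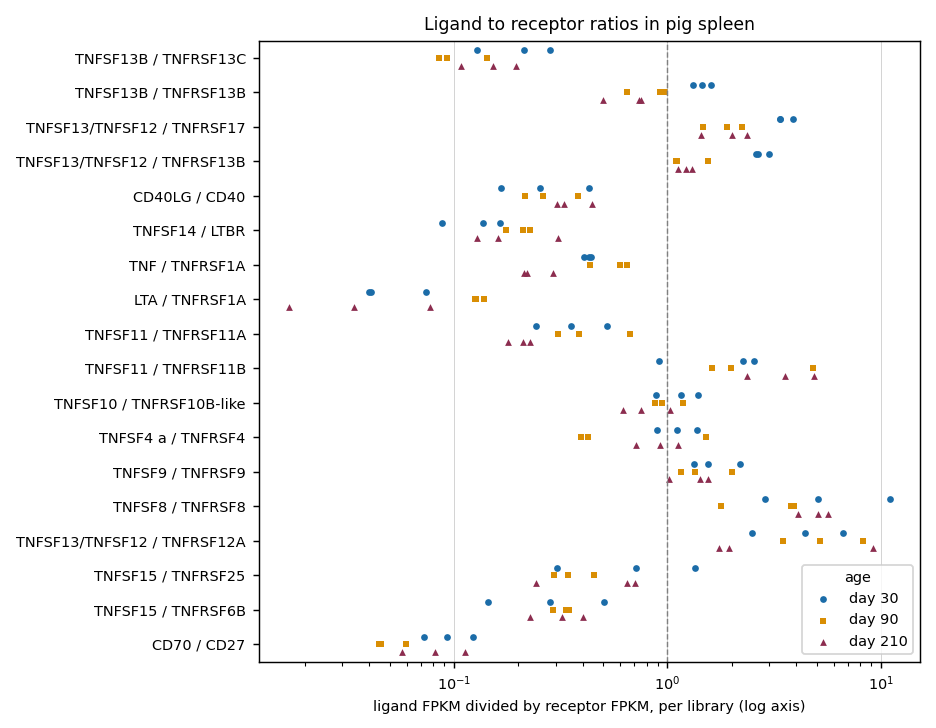
Ligand FPKM divided by receptor FPKM in each of the 9 libraries on a log axis, for 18 pairs, marked by age; the dashed line marks equal FPKM. The 3 day 30 libraries stand to the right in both pairs with TNFRSF13B (1.32 to 1.60 for TNFSF13B, 2.60 to 2.98 for the merged TNFSF13 and TNFSF12 locus).

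Circular RNAs, read from junctions that splice backwards, were scarce at these loci. The deposited circRNA table held 18908 circRNAs with 116963 junction reads, of which 11 circRNAs with 35 reads came from 6 member loci. TNFRSF21 gave 4 circRNAs with 18 reads, namely 4 in day 30 libraries, 5 in day 90 libraries and 9 in day 210 libraries. RELT, TRAF5 and TNFRSF19 gave 5 reads each, and TNFRSF11A and TRAF3 gave 1 read each. Of the 11 circRNAs, 0 reached 10 reads over the 9 libraries, so a difference between ages was not detectable at this depth.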

How the data were processed

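The deposited gene table gave, for each of 28095 loci, read counts (counts per locus, by the authors) and FPKM (normalized by the authors) in 9 spleen libraries. A second deposited table listed circRNAs with counts of reads across back-spliced junctions, and with SRPBM, a signal the authors scaled per library. Per the submitters' processing notes, HISAT2 2.0, StringTie 1.3.0 and Bowtie 0.12.2 were used. Their only build, mm8, is of mouse, and coordinates printed here are as deposited, on a pig build that is not certain. Strand and counting tool are not given in the sources used here. Counts of loci averaging at least 1 FPKM were tested with edgeR 4.0.16 (R 4.3.3): TMM factors, 1 quasi-likelihood fit over the 9 libraries with a mean per age, two-sided contrasts of later minus earlier age, Benjamini-Hochberg adjustment over 19264 loci. DESeq2 1.42.0, limma 3.58.1 on log2(FPKM + 1), other scalings and filters, and leaving out each library were alternatives. The fit was tested on simulated data. Named were members with an adjusted p under 0.05, members of the listed ligand and receptor axes, and listed pathway genes past the threshold; other values near the threshold were named after they were seen. Members and lists were chosen with earlier results of these data known. No sequences were analysed here.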

Additional observations from a re-analysis of the deposited data

How the results depend on the processing

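Of the 10 pairwise member calls, 0 changed direction under any alternative run, and 1, TNFRSF21 between day 210 and day 30, remained without each library in turn; the other 9 ended without at least 1 library. Counts are given below as day 90 against day 30, day 210 against day 90, day 210 against day 30 and any ages, where all 4 moved. DESeq2 called 2424, 801, 2300 and 3324 loci, against 1171, 103, 1203 and 1471 by edgeR, and 6 members between day 210 and day 90, 9 between day 210 and day 30 and 14 over any ages, against 1, 5 and 6. Without the filter, 66 loci were called between day 210 and day 90, and the members called were 1 between day 90 and day 30, 0 between day 210 and day 90 and 3 over any ages. Without TMM scaling, with limma on log2(FPKM + 1) or with the 2 ages alone, 0 members were called between day 210 and day 90, where the main test had 12 at an unadjusted p under 0.05; the 2 ages alone gave 1 member and 499 loci between day 210 and day 30. Leaving out 1 library gave 280 to 1556, 7 to 139, 342 to 1053 and 493 to 1671 loci and 0 to 5, 0 to 1, 1 to 3 and 1 to 6 members. The cause was not tested. Of the loci called between day 90 and day 30, 33.8% rose by the main test, 19.7% without TMM scaling and 7.38% with limma on FPKM; between day 210 and day 90 these were 65%, 76.9% and 88.5%, and between day 210 and day 30 they were 40.8%, 32.6% and 22.9%. The median over all loci with limma was -0.15 between day 90 and day 30 and 0.11 between day 210 and day 90, and members split into 1 that rose and 4 that fell between day 90 and day 30, against 3 and 1 by the main test. With the replicate number as a block, 582, 43, 531 and 651 loci and 2, 0, 1 and 3 members were called; deviations of same-numbered libraries correlated at -0.071 to 0.084 over 9 pairs, so the numbers are not taken as pairing. Members of under 5 CPM, such as TNFRSF11B, TNFRSF13B and most costimulatory members, rest on the fewest reads.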
